A study of Mus musculus with 26 samples.

Results

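Fc receptors bind the constant part of antibodies. The 7 genes described here were taken by name as the Fc receptor genes of myeloid cells, out of 61461 genes listed in at least 1 of 3 count tables. No cut-off on a measured value was used, but earlier results of these data were known when the genes were chosen. The RNA came from 3 myeloid cell types, sorted by flow cytometry from naïve female mice, and made up 26 libraries. WT mice were C57BL/6J animals bought from a supplier. ACKR2-/- mice lack the atypical chemokine receptor ACKR2, a scavenger of inflammatory CC chemokines, in every cell and were bred in the investigators' own facility, so that genotype and place of breeding cannot be told apart. Mice in the study were 8 to 10 weeks old unless stated otherwise. Bone marrow monocytes (CD11b+ Ly6C+) and small peritoneal macrophages (SPMs, CD11b+ MHCII+ with intermediate F4/80) had 4 WT and 4 ACKR2-/- libraries each, with cells of 5 mice sorted into each library. MHCII negative lung macrophages (CD11b+ F4/80+ Ly6C-) had 5 WT and 5 ACKR2-/- libraries, and for these no source used here gives the number of mice per library. No sorting antibody was directed at an Fc receptor, but the suspensions were blocked with an antibody to CD16 and CD32, the products of Fcgr3 and Fcgr2b.

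The members have different parts in the handling of antibody. Fcgr1 encodes the high-affinity IgG receptor Fc gamma RI, Fcgr3 the activating low-affinity receptor Fc gamma RIII, and Fcgr4 the activating receptor Fc gamma RIV of intermediate affinity. Fcer1g encodes the FcR gamma chain, which carries the ITAM signalling motif for all 3 activating receptors and brings them to the cell surface. Fcgr2b encodes the inhibitory receptor Fc gamma RIIB, whose ITIM motif recruits phosphatases. Fcgrt encodes the heavy chain of FcRn, which pairs with B2m and returns IgG from endosomes to the circulation. Fcrls encodes an Fc receptor-like scavenger protein, used as a marker of microglia, for which no antibody binding is assumed here.

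On mm10 (GRCm38), 4 of the members lie within 275749 bases of chromosome 1. Fcgr2b (ENSMUSG00000026656, minus strand) spans 170958617 to 170976547, Fcgr4 (ENSMUSG00000059089, plus strand) 171018920 to 171029761, Fcgr3 (ENSMUSG00000059498, minus strand) 171051174 to 171064935 and Fcer1g (ENSMUSG00000058715, minus strand) 171229572 to 171234365. Fcrls (ENSMUSG00000015852) and Fcgr1 (ENSMUSG00000015947) lie on the minus strand of chromosome 3, from 87250758 to 87263738 and from 96282909 to 96293969. Fcgrt (ENSMUSG00000003420) lies on the minus strand of chromosome 7, from 45092990 to 45103851. All 7 positions equal those of GENCODE M21.

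Fcgr2b and Fcgr3 are close copies of each other, which matters for how their reads can be counted. Their longest complete coding sequences in GENCODE M21 have 1023 and 804 bases, and 83.7% of 787 aligned bases are identical. The other pairs among Fcgr1, Fcgr2b, Fcgr3, Fcgr4 and Fcrls share 54.1% to 64.5%. The longest run without a difference has 129 bases for Fcgr2b and Fcgr3 and at most 15 in any other pair. The spliced stretches of 150 coding bases that are most alike are shown because they have the length of a read. They come from transcript Fcgr2b-201 (coding bases 256 to 405, within chr1:170966675-170968103) and transcript Fcgr3-201 (coding bases 241 to 390, within chr1:171054168-171057814), both on the minus strand. They differ at 1 base, in capitals.
Fcgr2b: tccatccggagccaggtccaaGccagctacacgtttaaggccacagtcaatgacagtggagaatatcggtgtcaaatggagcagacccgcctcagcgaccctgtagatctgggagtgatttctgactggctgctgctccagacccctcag
Fcgr3: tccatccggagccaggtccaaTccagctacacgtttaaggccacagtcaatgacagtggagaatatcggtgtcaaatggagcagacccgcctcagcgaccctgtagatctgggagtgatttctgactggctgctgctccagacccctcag
No window of 150 bases is shared in full, while 17.0% of the 50-base windows of the Fcgr2b coding sequence occur in that of Fcgr3. A read from the shared stretch can be placed only through such a base or its mate, so the split of reads between Fcgr2b and Fcgr3 is uncertain there. Antisense gene models overlap Fcgr2b (Gm38204, 89 counts over all libraries) and Fcgrt (Gm45669, 2165 counts). No source used here says whether the counting used strand, so reads of these pairs may be mixed.

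The promoters of Fcgr1, Fcgr4 and Fcrls, the 3 members that set 2 ACKR2-/- SPM libraries apart from the rest, are printed as the 250 bases before the RefSeq start (GRCm38.p6, 5′ to 3′ on the strand of the gene). Capitals mark GAGGAA or its complement, the core of sites for the myeloid ETS factor PU.1, TTCNNNGAA, the form of STAT sites, and GAAANNGAAA, the form of interferon response elements, all searched on both strands.
Fcgr1 (chr3:96293970-96294219, minus strand): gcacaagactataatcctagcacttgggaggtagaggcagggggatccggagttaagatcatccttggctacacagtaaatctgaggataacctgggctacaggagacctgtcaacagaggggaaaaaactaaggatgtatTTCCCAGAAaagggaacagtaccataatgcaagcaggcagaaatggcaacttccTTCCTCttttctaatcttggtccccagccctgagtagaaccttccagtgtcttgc
Fcgr4 (chr1:171018676-171018925, plus strand): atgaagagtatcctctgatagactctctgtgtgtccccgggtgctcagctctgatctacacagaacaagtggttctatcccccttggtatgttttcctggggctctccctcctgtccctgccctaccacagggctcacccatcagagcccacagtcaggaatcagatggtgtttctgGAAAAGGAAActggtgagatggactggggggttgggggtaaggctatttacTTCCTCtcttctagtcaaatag
Fcrls (chr3:87263525-87263774, minus strand): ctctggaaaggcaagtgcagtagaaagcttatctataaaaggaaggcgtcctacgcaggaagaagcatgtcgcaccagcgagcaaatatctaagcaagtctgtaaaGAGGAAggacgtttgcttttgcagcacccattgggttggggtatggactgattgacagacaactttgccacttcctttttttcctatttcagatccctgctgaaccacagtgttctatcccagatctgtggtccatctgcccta
Of the 7 members, 4 held GAGGAA (Fcgr1, Fcgr3, Fcgr4 and Fcrls), against 23.1% of the 27018 promoters of the table cut to the same length. TTCNNNGAA was found in Fcgr1, against 7.18% of promoters, and GAAANNGAAA in Fcgr4, against 3.04%. These are matches of letters and say nothing about binding.

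Levels are given as CPM, read counts scaled to library size with TMM factors of a fit of all 26 libraries, so that values of all groups share a scale. Depth was 15450670 to 19218213 counts per library in monocytes, 12781144 to 35400034 in SPMs and 19950019 to 29770252 in lung macrophages. TMM factors were 0.490 to 0.734 in SPMs and 1.14 to 1.54 in the other cell types. The 0.734 was that of WT SPM replicate 1, against 0.490 to 0.505 in the other WT SPMs. The cells of each type were prepared and counted in a table of their own, so cell type and table cannot be told apart. Ackr2, the targeted gene, had at most 2 counts per monocyte library, 5 to 9 counts in WT and 0 in ACKR2-/- SPMs, and 150 to 469 counts in WT lung replicates 1 to 4 against 7 to 50 in ACKR2-/- lung libraries. The library labelled WT lung replicate 5 held 0 counts of it, so its genotype label is open to question. Values without that library are given for some results. In bulk samples, fewer cells of a type and less RNA per cell cannot be told apart.

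Some libraries stand apart by marker genes of other cells. Monocyte libraries held 7557 to 44030 CPM of 8 neutrophil genes, against at most 39.6 CPM in the other cell types, and neutrophils are known to carry Fcgr3 and Fcgr4. All 7 T cell markers in the tables passed the test in ACKR2-/- monocytes, with summed levels of 45.0 to 75.1 CPM against 2.21 to 3.41 CPM in WT. SPM libraries held 763 to 8864 CPM of 7 mast cell or basophil genes, which matters for Fcer1g, as these cells use the same gamma chain. WT SPM replicate 1, the lowest WT SPM library for every member, held 4669 CPM of monocyte markers, against 2395 to 2922 CPM in the other WT SPMs. Its dendritic cell markers summed to 247 CPM, against 1416 to 2175 CPM. In ACKR2-/- SPM replicates 1 and 4, the 7 markers of large peritoneal macrophages summed to 2305 and 2936 CPM and 6 of alveolar macrophages to 384 and 591 CPM, against 615 to 1399 and 23.1 to 77.0 CPM in the other 6 SPM libraries. WT lung replicate 3 held 51220.4 CPM of the 7 small peritoneal macrophage markers, MHCII genes among them, and 9869 CPM of 8 interstitial macrophage markers, against 2977 to 6583 and 962 to 2715 CPM in the other 9 lung libraries. Its 7 B cell genes summed to 1482 CPM, against 106 to 569 CPM in those 9. Its dendritic cell genes summed to 851 CPM, against 29.5 to 233 CPM. These 9 libraries held 4984 to 9044 CPM of 9 genes known from nonclassical monocytes, among them Nr4a1, Treml4 and Ace, against 1600.1 CPM in WT lung replicate 3 and 383 to 1025 CPM in bone marrow monocytes. That list was chosen after its values were seen, so no test of it is given. Lung libraries also held 209.5 to 15488 CPM of 6 epithelial, 105 to 626 CPM of 7 endothelial and 46.8 to 729.5 CPM of 6 fibroblast genes, with overlap between genotypes, against at most 9.82, 12.4 and 7.14 CPM in the other cells. The 6 NK cell genes summed to 343 to 2036 CPM in ACKR2-/- and 131 to 346 CPM in WT lung macrophages, and NK cells are known to carry Fcgr3 and Fcer1g. None of the 6 was called by edgeR, while all 6 had an unadjusted p under 0.05 and DESeq2 called 3 (median log2 fold change 2.08). The part of any of these cells in the results below was not tested.

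Fcer1g was the member with the highest level per length in all 6 groups, and its adaptor role is shared with Tyrobp. WT monocytes held 1686, 1662, 1933 and 1868 CPM of Fcer1g in replicates 1 to 4. WT SPMs held 5953, 9715, 14019 and 9618 CPM, and WT lung macrophages 2319, 2134, 1398, 1892 and 3361 CPM. Every WT SPM library was above every library of the other WT cells, whose ranges overlap each other. Per kb of transcript the mean was 2045 ± 153 CPM (SD, n = 4) in WT monocytes, 11243 ± 3774 (SD, n = 4) in WT SPMs and 2541 ± 829.5 (SD, n = 5) in WT lung macrophages. The mast cell or basophil genes were lowest in WT SPM replicate 1 (763 CPM) and highest in replicate 3 (8864 CPM), as Fcer1g was among WT SPMs. ACKR2-/- SPMs did not share that order: replicate 1 had the most Fcer1g (10409.6 CPM) and the least of these genes (2773 CPM) in its group, and replicate 3, with 3479 CPM of them, had the least Fcer1g of all 8 SPM libraries (5477 CPM).

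Among the receptors proper, the mix of transcripts differed between cell types. As a share of the 4 Fc gamma receptor genes per length, Fcgr3 took 81.7% ± 0.913 (SD, n = 4) in WT monocytes and 84.3% ± 2.02 (SD, n = 4) in WT SPMs. In WT lung macrophages it took 38.1% ± 17.6 (SD, n = 5). Fcgr4 took 3.52% ± 0.692 in WT monocytes, 9.96% ± 1.94 in WT SPMs and 53.9% ± 22.6 in WT lung macrophages, with the same n. WT lung replicate 3 was the exception among lung libraries, at 13.9% Fcgr4 and 69.2% Fcgr3, where the other 4 WT libraries held 60.2% to 67.9% Fcgr4. The 67.9% was that of the library labelled WT replicate 5. Fcgr1 made up 6.18% ± 0.898 in WT monocytes and 0.316% ± 0.0778 in WT SPMs. The length that the tables give for Fcgr2b, 5790 bases, exceeds its longest protein-coding transcript of 3544 bases, so its share would be higher with the shorter length.

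**Figure D1:**
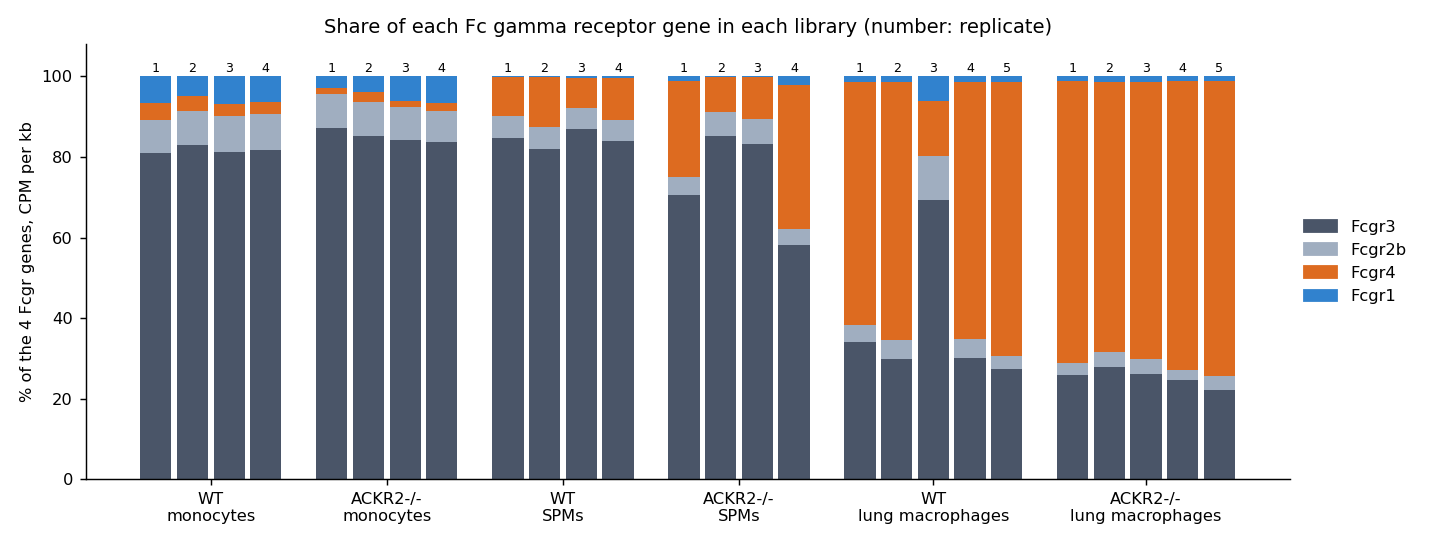
Share (%) of Fcgr3, Fcgr2b, Fcgr4 and Fcgr1 in the summed CPM per kb of these 4 genes, as a stacked bar for each of the 26 libraries, with the replicate number above. Fcgr3 takes over 80% of each WT monocyte and WT SPM bar, Fcgr4 over 60% of each lung bar except WT replicate 3, and ACKR2-/- SPM replicates 1 and 4 show more Fcgr4 than the other SPM libraries.

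The level of each member was then compared between cell types in WT cells, in edgeR (quasi-likelihood test, 17792 genes, Benjamini-Hochberg adjustment). A gene was called if its adjusted p was under 0.05 and its log2 fold change beyond 0.5 in size. SE is the standard error of that change, derived as its size over the square root of the quasi-likelihood F value. SPMs held more Fcgr2b, Fcgr3, Fcgr4, Fcer1g, Fcgrt and Fcrls than monocytes and less Fcgr1, and all 7 members were called. Of all genes tested, 41.9% were called in that comparison, 21.8% as higher. The groups did not overlap for any of the 7, as was so for 41% of all genes. Between lung macrophages and monocytes 3 members were called, all higher in the lung (Fcgr4, Fcgrt and Fcrls), at a background of 63.8% called and 39.5% called higher. Between lung macrophages and SPMs 4 members were called, all lower in the lung (Fcgr2b, Fcgr3, Fcer1g and Fcrls), at a background of 62.3% called and 23.2% called lower. The median log2 fold change of the members was 2.46, 0.31 and -1.95 in these 3 comparisons, beside 0, 0.34 and 0.41 over all genes tested. With RLE in place of TMM factors, the values over all genes were 0.16, 0.41 and 0.31.

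Fcrls showed the widest range of any member. WT monocytes held 5, 18, 15 and 16 counts of it, or 0.250 to 0.882 CPM. WT SPMs held 1232, 2042, 1352 and 2133 CPM and WT lung macrophages 72.0, 35.8, 285, 28.7 and 47.2 CPM. The 3 cell types did not overlap. The log2 fold change was 11.39 (SE 0.90, edgeR adjusted p = 2.3e-10) between SPMs and monocytes and 7.21 (SE 0.78, edgeR adjusted p = 1.66e-08) between lung macrophages and monocytes. Lung macrophages had less of it than SPMs by -4.17 (SE 0.59, edgeR adjusted p = 1.25e-06). The highest lung value, 285 CPM, was that of WT replicate 3, and without that library the comparison with monocytes gave 6.19 and that with SPMs -5.20.

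Fcgr4 was higher in the SPM and lung macrophage libraries than in the monocyte libraries. WT monocytes held 20.8, 17.8, 14.1 and 13.5 CPM of this activating receptor. WT SPMs held 123, 381, 298 and 352 CPM and WT lung macrophages 422, 394, 103, 357 and 748 CPM, the last of these in the library labelled WT replicate 5. Both macrophage groups lay above all monocyte libraries and overlapped each other. The log2 fold change was 4.12 (SE 0.54, edgeR adjusted p = 7.66e-07) for SPMs and 4.61 (SE 0.54, edgeR adjusted p = 6.73e-08) for lung macrophages, and the difference between the macrophages, 0.49 (SE 0.45), was not called (edgeR adjusted p = 0.353). Without the library labelled WT lung replicate 5, the lung value was 4.27. Leaving out single libraries gave 0.15 to 0.74 for the difference between the macrophages. WT replicate 3, the lung library with the least Fcgr4, was also the one with the least of the nonclassical monocyte genes. Those genes summed to 1600 to 7175 CPM in WT lung libraries. In WT SPMs they summed to 97.6 to 136 CPM and in WT monocytes to 637 to 1025 CPM. The part of nonclassical monocytes in the lung level of Fcgr4 was not tested.

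Fcgr3 and the inhibitory Fcgr2b were both highest in SPMs. WT monocytes held 538, 532, 525 and 531 CPM of Fcgr3, WT SPMs 1479, 3536, 4765 and 3912 CPM, and WT lung macrophages 329.9, 254, 714, 233 and 417 CPM. WT monocytes held 180.3, 177, 193 and 194 CPM of Fcgr2b, WT SPMs 315, 794, 961 and 835 CPM, and WT lung macrophages 139, 136, 374, 124 and 168 CPM. SPM replicate 1 was the lowest of its group in both genes, and WT lung replicate 3 the highest of its group in both. That lung library also held the most B cell genes (1482 CPM). The mast cell or basophil genes, at 763, 3961, 8864 and 4445 CPM in WT SPMs, had the order of both genes. In ACKR2-/- SPMs replicate 2 led in these mast cell or basophil genes (6033 CPM) and in both receptors. Replicate 1 was lowest in them (2773 CPM) and replicate 4 in both receptors. The part of these cells in either gene was not tested. Against monocytes, SPMs gave a log2 fold change of 2.69 (SE 0.35, edgeR adjusted p = 9.39e-07) for Fcgr3 and 1.96 (SE 0.32, edgeR adjusted p = 1.43e-05) for Fcgr2b. Against SPMs, lung macrophages gave -3.14 (SE 0.33, edgeR adjusted p = 1.2e-08) for Fcgr3 and -1.95 (SE 0.29, edgeR adjusted p = 2.83e-06) for Fcgr2b. For Fcgr2b these groups overlapped, as WT lung replicate 3 (374 CPM) lay above WT SPM replicate 1 (315 CPM). Fcgr3 per length exceeded Fcgr2b 9.54-fold ± 0.510 (SD, n = 4) in WT monocytes, 15.7-fold ± 0.689 (SD, n = 4) in WT SPMs and 7.01-fold ± 0.999 (SD, n = 5) in WT lung macrophages, ranges that did not overlap. The size of these folds depends on the lengths taken, 1736 bases for Fcgr3 and 5790 for Fcgr2b. The longest protein-coding transcripts have 1347 and 3544 bases. Over the 26 libraries, which share cell type and table, the log2 levels of the pair had a Pearson r of 0.98, and 0.93 after each cell type was centred on its mean. The part of reads from the shared stretch printed above in this likeness was not tested.

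Lung macrophages and monocytes gave no call for Fcgr3 or Fcgr1 with all libraries, and this rested on WT lung replicate 3. Without that library both were called lower in the lung, Fcgr3 by -0.78 (edgeR adjusted p = 0.0220) and Fcgr1 by -1.46 (edgeR adjusted p = 0.0225). With all libraries the values were -0.45 (95% interval -1.07 to 0.17) for Fcgr3 and -0.74 (95% interval -1.86 to 0.39) for Fcgr1. Fcgr2b gave 0.02 (95% interval -0.55 to 0.58) with all libraries.

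Fcgr1, the high-affinity receptor, was the only member lower in WT SPMs than in WT monocytes. WT monocytes held 65.2, 46.2, 65.3 and 63.1 CPM of it and WT SPMs 6.40, 16.7, 28.8 and 28.5 CPM, without overlap. WT lung macrophages held 20.3, 16.9, 93.0, 17.5 and 32.4 CPM, a range across both other groups. Between SPMs and monocytes the log2 fold change was -1.58 (SE 0.63, edgeR adjusted p = 0.0446). This call was close to the threshold: it was lost with RLE factors (-1.39, adjusted p = 0.0821), with DESeq2 (-1.38, adjusted p = 0.0526) and in 6 of the 8 fits without a WT library of either cell type. In ACKR2-/- cells the sign was the opposite, 0.72 (SE 0.61, edgeR adjusted p = 0.37), with 2 of the 4 SPM libraries high, as described below.

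Fcgrt, the heavy chain of FcRn, was higher in both macrophages than in monocytes. WT monocytes held 66.7, 52.0, 70.0 and 63.6 CPM of it, WT SPMs 129, 259, 276 and 262 CPM, and WT lung macrophages 249, 222, 337, 170.1 and 284 CPM. No macrophage library fell to the level of a monocyte library, and the macrophages overlapped each other. The log2 fold change against monocytes was 1.88 (SE 0.26, edgeR adjusted p = 1.59e-06) in SPMs and 2.0 (SE 0.25, edgeR adjusted p = 1.84e-07) in lung macrophages. B2m, its light chain and that of MHC class I, rose by 2.49 and 1.21 in the same comparisons (edgeR adjusted p = 3.09e-06 and 0.00247).

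**Figure D2:**
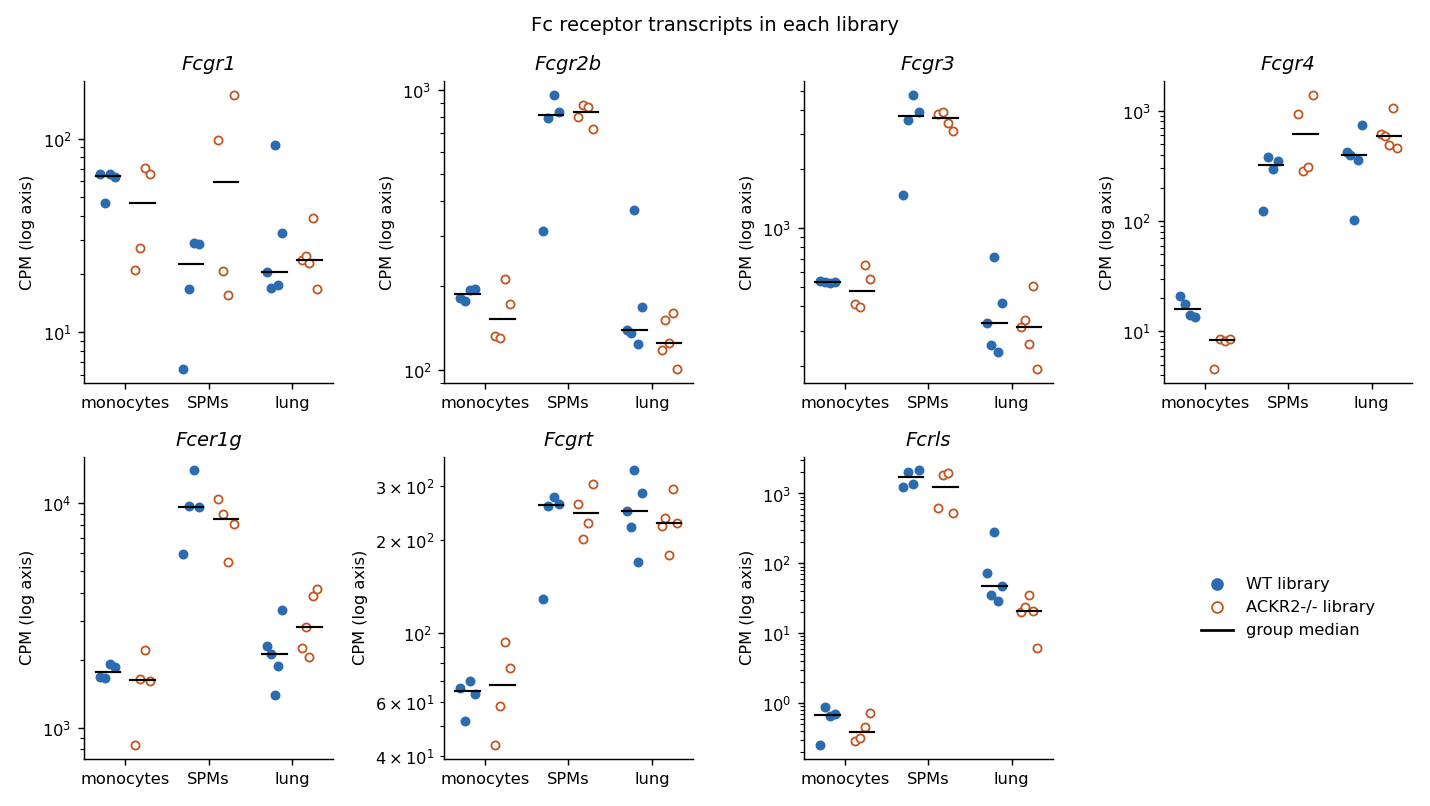
CPM on a log axis of each of the 7 genes in every library, with WT as filled and ACKR2-/- as open points and a line at the median of each group. Fcgr2b, Fcgr3 and Fcer1g are highest in SPMs, Fcgr4 and Fcgrt are higher in both macrophages than in monocytes, and Fcrls spans from under 1 CPM in monocytes to between 519 and 2133 CPM in SPMs.

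The same contrasts in ACKR2-/- cells, which use other libraries but the same tables, called 6 members between SPMs and monocytes (background 40.3%), 4 between lung macrophages and monocytes (background 62%) and 5 between lung macrophages and SPMs (background 63.6%). Fcgr1 was the member not called in the contrast of SPMs and monocytes. Fcer1g, which was not called in WT between lung macrophages and monocytes (0.31, SE 0.30), was called in ACKR2-/- cells at 0.94 (SE 0.30, edgeR adjusted p = 0.00927). The ACKR2-/- libraries overlapped, with monocytes up to 2226 CPM and lung macrophages from 2063 CPM. The genotypes differed in this Fcer1g contrast by 0.63 (SE 0.42, edgeR adjusted p = 0.912), which was not called. Fcgr1 was called lower in lung macrophages than in SPMs in ACKR2-/- cells, by -1.59 (SE 0.58, edgeR adjusted p = 0.0194), where WT cells gave 0.85 and, without WT lung replicate 3, 0.12. The groups behind that call overlapped, since ACKR2-/- SPM replicates 2 and 3 (20.6 and 15.5 CPM) lay within or below the lung values of 16.7 to 38.7 CPM and replicates 1 and 4 (98.7 and 168 CPM) above them. Without replicates 1 and 4, left out after seeing the data, the call was lost and the sign turned (0.50, edgeR adjusted p = 0.509). Fcgr4 rose by 6.62 and 6.43 from ACKR2-/- monocytes to SPMs and lung macrophages. Whether these contrasts differ between genotypes is the interaction tested at the end.

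**Figure D3:**
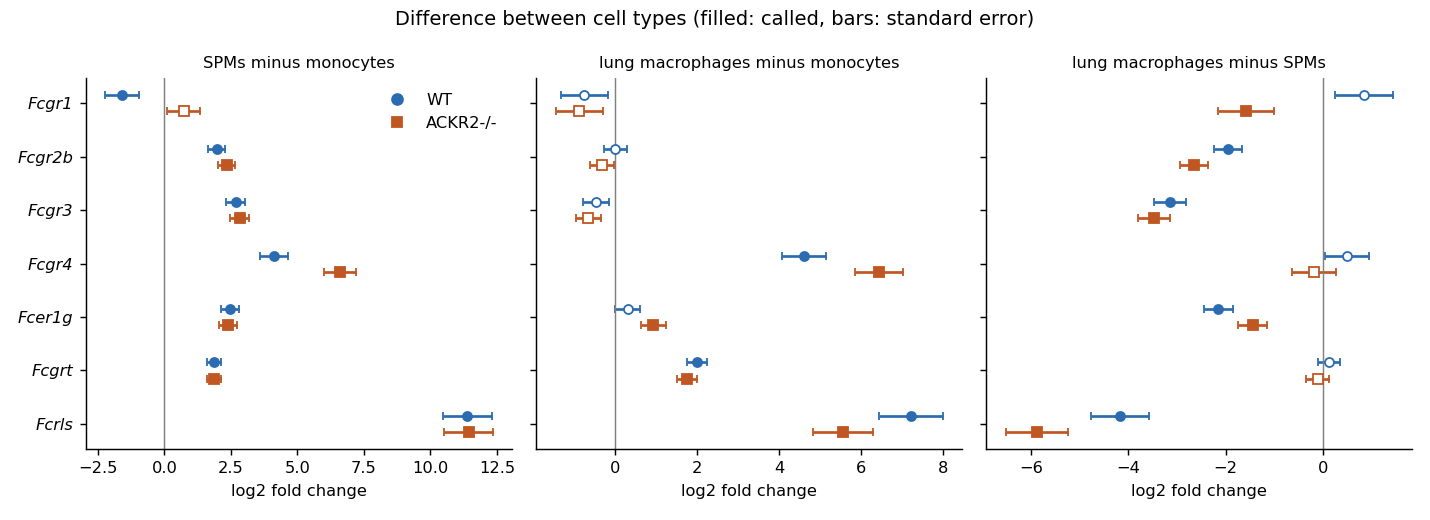
Log2 fold change between cell types for each of the 7 genes in WT (circles) and ACKR2-/- (squares) libraries, filled where called, with bars of 1 standard error. The genotypes lie within 1 standard error of each other for Fcgrt and on opposite sides of 0 for Fcgr1 in the contrasts with SPMs.

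The effect of genotype was then compared within each cell type, in a fit of that cell type alone. In monocytes 1 of the 7 members was called, Fcgr4, which was lower in ACKR2-/- cells, at a background of 1.27% of 13246 genes called in either direction and 0.355% called lower. ACKR2-/- monocytes held 4.52, 8.57, 8.15 and 8.55 CPM of Fcgr4, all below the 13.5 to 20.8 CPM of WT. The genotypes did not overlap, as was so for 10.5% of the genes tested. The log2 fold change was -1.14 (SE 0.22, edgeR adjusted p = 0.0283), a level 2.20-fold lower. The call was kept under DESeq2 (adjusted p = 0.000166, at a background of 3.73% called) and with RLE factors, with no filter on low counts, and with ACKR2-/- replicates 1 and 2 left out together (adjusted p = 0.00736), an alternative chosen after seeing the data. It was lost without WT replicate 1 (-1.0, adjusted p = 0.108), WT replicate 2 (-1.09, adjusted p = 0.0959) or ACKR2-/- replicate 4 (-1.22, adjusted p = 0.0518). The neutrophil genes, at 17191 to 44030 CPM in WT and 7557 to 28887 CPM in ACKR2-/- monocytes, overlapped between genotypes but moved in the direction of Fcgr4. Their median log2 fold change was -0.78, with 0 of 8 called by edgeR, 2 by DESeq2 and 3 at an unadjusted p under 0.05. ACKR2-/- replicates 3 and 4, at 7557 and 9802 CPM, lay below every WT library, while Fcgr4 was lowest in replicate 1, at 23551 CPM of them. The nonclassical monocyte genes summed to 637 to 1025 CPM in WT and 383 to 808 CPM in ACKR2-/- monocytes.

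None of the other 6 members was called in monocytes. ACKR2-/- replicates 1 and 2 were low in several of them. For Fcgr1 these 2 libraries held 20.9 and 27.1 CPM while replicates 3 and 4 held 70.5 and 65.5 CPM, above every WT value. For Fcgr3 they held 409 and 395 CPM against 653 and 549 CPM, and for Fcgr2b 132 and 130.3 against 211 and 171 CPM. WT values of Fcgr3 lay within 525 to 538 CPM, so ACKR2-/- libraries lay on both sides of the whole WT range. Fcer1g was at 836, 1641, 2226 and 1614 CPM and Fcgrt at 43.4, 58.1, 93.8 and 77.5 CPM in ACKR2-/- monocytes. The log2 fold changes ranged from -0.46 for Fcrls, on 7 to 18 counts per ACKR2-/- library, to 0.13 for Fcgrt, with edgeR adjusted p from 0.576 to 0.8805. Over the 7 members the median was -0.18, beside 0.00 over all genes. The monocyte markers followed a similar order, with 3752 and 5435 CPM in ACKR2-/- replicates 1 and 2 and 7316 and 6023 CPM in replicates 3 and 4.

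In SPMs none of the 7 members was called by edgeR, at a background of 0.0462% of 12997 genes. At an unadjusted p under 0.05 there were 2 members, Fcgr1 and Fcgr4, where 5.46% of all genes had such a p, and DESeq2 called 0, at a background of 0.254%. ACKR2-/- SPMs held 98.7, 20.6, 15.5 and 168 CPM of Fcgr1 and 935, 286, 306 and 1397 CPM of Fcgr4. Replicates 1 and 4 were above every WT library in both genes, while replicates 2 and 3 lay within the WT ranges of 6.40 to 28.8 and 123 to 381 CPM. In the same 2 libraries Fcrls was below every WT value, with 619, 1865, 1995 and 519 CPM in ACKR2-/- replicates 1 to 4 against 1232 to 2133 CPM in WT. Fcgr3, with 3812, 3907, 3421 and 3124 CPM, and Fcgr2b, with 799, 885, 869.5 and 725 CPM, showed no such split.

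The log2 fold changes in SPMs were 1.89 (SE 0.72, edgeR adjusted p = 0.788) for Fcgr1, 1.30 (SE 0.51, edgeR adjusted p = 0.788) for Fcgr4 and -0.49 (SE 0.42, edgeR adjusted p = 0.799) for Fcrls. Without ACKR2-/- replicate 4 alone, Fcgr1 gave 1.15. With ACKR2-/- replicates 1 and 4 left out, an alternative chosen after seeing the data, the 3 values turned to -0.20, -0.012 and 0.13. The 2 libraries also had higher sums of the large peritoneal and alveolar macrophage markers, as given above. The alveolar sum need not hold for each gene. In SPMs 3 of the 7 alveolar markers were tested between genotypes, with a median log2 fold change of -0.29. Fcer1g (10409.6, 9004, 5477 and 8104 CPM in ACKR2-/- SPMs) and Fcgrt (262, 201, 228 and 306 CPM) overlapped with WT, at -0.30 (95% interval -0.88 to 0.27) and 0.06 (95% interval -0.41 to 0.53).

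**Figure D4:**
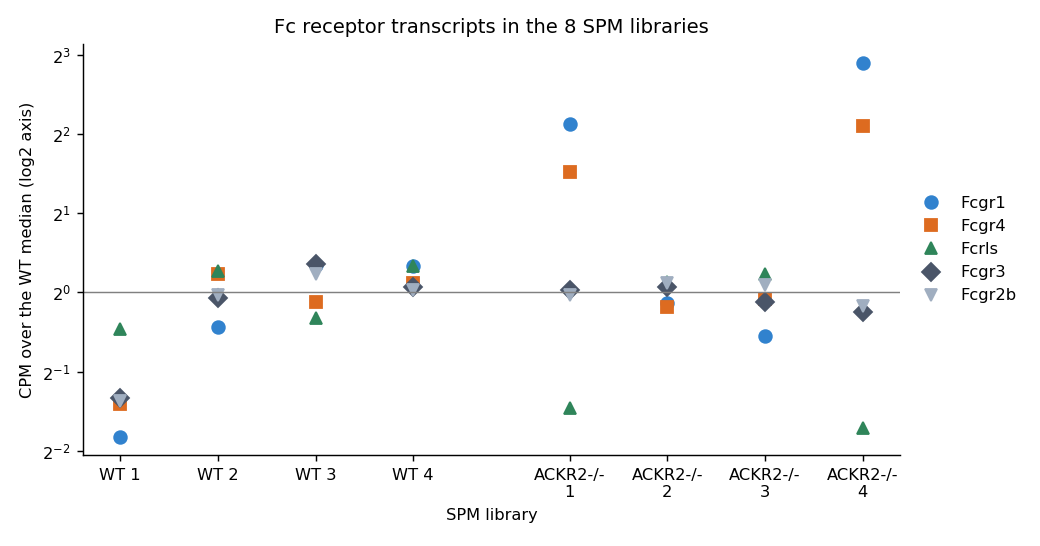
CPM of 5 genes in the 8 SPM libraries, divided by the WT median of that gene, on a log2 axis. ACKR2-/- replicates 1 and 4 lie at 4.37 and 7.46 times that median for Fcgr1, 2.88 and 4.30 times for Fcgr4, and 0.365 and 0.306 times for Fcrls, and WT replicate 1 is the lowest WT library for all 5 genes.

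In lung macrophages none of the 7 members was called by edgeR, and neither was any of the 16824 genes tested (0%). At an unadjusted p under 0.05 there was 1 member, Fcrls, where 2.97% of all genes had such a p, and DESeq2 called 0 members, at a background of 0.0892%. ACKR2-/- lung macrophages held 20.1, 23.9, 35.1, 20.8 and 6.09 CPM of Fcrls, which overlapped the 28.7 to 285 CPM of WT in replicate 3. The log2 fold change was -2.17 (SE 0.67, unadjusted p = 0.00736, edgeR adjusted p = 0.9999), and it was -1.08 without WT replicate 3. Fcgr4 was at 615, 587, 490.2, 1063 and 458 CPM in ACKR2-/- lung macrophages, or 0.66 on the log2 scale (95% interval -0.12 to 1.43), and 1.03 without the library labelled WT replicate 5. Fcer1g was at 2263, 2825, 2063, 3872 and 4158 CPM, a difference of 0.46 (95% interval -0.07 to 0.99), beside the NK cell genes given above. The library labelled WT replicate 5 had the highest WT value of Fcer1g (3361 CPM). Leaving out single libraries gave 0.30 to 0.67 for this gene.

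The other 4 members had lower means in ACKR2-/- lung macrophages, and these differences moved to near or past 0 without WT replicate 3. Fcgr1 was at 23.4, 24.7, 22.8, 38.7 and 16.7 CPM, Fcgr2b at 118, 151, 124, 159.9 and 100.4 CPM and Fcgr3 at 316, 339.6, 259, 506 and 191 CPM. Their log2 fold changes were -0.55, -0.55 and -0.31, and without WT replicate 3 they were 0.23, -0.093 and 0.079. Fcgrt, at 223, 236, 179, 293 and 228 CPM, gave -0.13 (95% interval -0.51 to 0.24), and 0.035 without WT replicate 3.

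**Figure D5:**
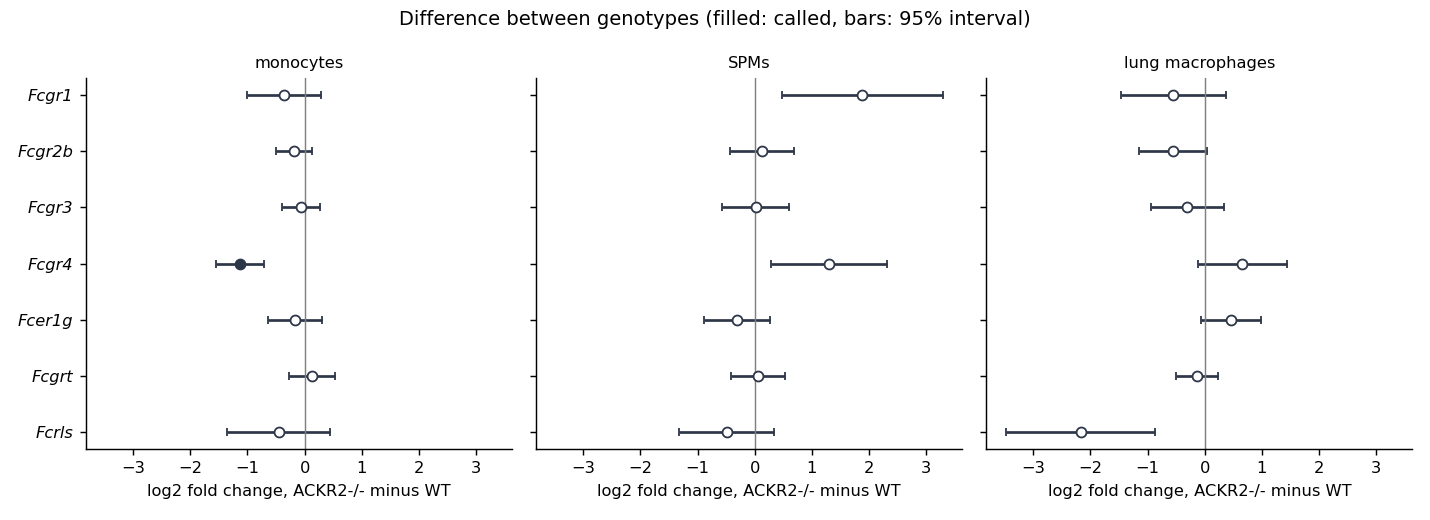
Log2 fold change between genotypes, ACKR2-/- minus WT, of the 7 genes in monocytes, SPMs and lung macrophages, with bars of the 95% interval (normal approximation) and a filled point where called. Fcgr4 in monocytes, at -1.14, is the filled point, and the widest intervals are those of Fcgr1 in SPMs and Fcrls in lung macrophages.

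Whether the effect of genotype differed between cell types was tested as an interaction in the fit of all 26 libraries. No member was called by edgeR in any of the 3 differences, at backgrounds of 0.253% for SPMs minus monocytes, 0.152% for lung macrophages minus monocytes and 0.0393% for lung macrophages minus SPMs. At an unadjusted p under 0.05 there were 2, 1 and 2 members, where 7.46%, 6.07% and 6.15% of all genes had such a p. Fcgr4 had the smallest p in the difference of SPMs and monocytes, 2.49 on the log2 scale (SE 0.68, edgeR adjusted p = 0.191), which DESeq2 called (2.42, adjusted p = 0.0389). Between lung macrophages and monocytes Fcgr4 gave 1.82 (SE 0.64, edgeR adjusted p = 0.53). Fcgr1 differed by 2.30 between SPMs and monocytes (SE 0.88, edgeR adjusted p = 0.522) and by -2.43 between lung macrophages and SPMs (SE 0.83, edgeR adjusted p = 0.647). Without ACKR2-/- SPM replicate 4 these became 1.55 and -1.68, and without WT lung replicate 3 the latter became -1.71. With ACKR2-/- SPM replicates 1 and 4 left out, Fcgr1 gave 0.23 and -0.36 and Fcgr4 gave 1.2 between SPMs and monocytes. DESeq2 called 0 members in the 2 differences with lung macrophages.

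The partners of these receptors were followed as 59 genes in 5 lists, chosen by known function. Between genotypes 1 of 46 tested genes was called in monocytes, and 0 of 52 and 0 of 53 in SPMs and lung macrophages, by edgeR and against the backgrounds given above. DESeq2 called 2, 0 and 0, and 13, 8 and 3 had an unadjusted p under 0.05, where 17%, 5.46% and 2.97% of all genes tested had such a p. The called gene was Lat, an adaptor of the T cell receptor and of Fc epsilon RI, which rose from 0.455 ± 0.0768 to 4.02 ± 1.38 CPM (SD, n = 4 each), a log2 fold change of 3.16 (SE 0.33, edgeR adjusted p = 5.4e-04). It moved with the T cell markers given above. Tyrobp, the other ITAM adaptor of these cells, and B2m were not called in any cell type, with log2 fold changes of 0.01 and -0.22 in monocytes, -0.17 and 0.23 in SPMs and 0.27 and 0.28 in lung macrophages.

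Between WT cell types 56 of the 59 genes were tested. In SPMs against monocytes 26 were called higher and 6 lower, at a background of 21.8% and 20.1% of all genes (median log2 fold change 0.64, against 0). Clec4b1, a C-type lectin that signals through the gamma chain, rose by 5.57 from 20.2 ± 3.28 CPM (SD, n = 4) to 959.5 ± 359 CPM, Dok2, an inhibitory adaptor, by 5.14 and Tyrobp by 2.47. Vav1, an exchange factor downstream of ITAM receptors, fell by 1.67 and the adaptor Dok3 by 2.01. In lung macrophages against monocytes 33 were called higher and 6 lower, at a background of 39.5% and 24.4% (median 1.05, against 0.34). Lilra5, an activating receptor that pairs with the gamma chain, rose by 9.32 from 0.219 ± 0.0679 to 144.5 ± 36.7 CPM, the kinase Fyn by 3.95 and the lectin Clec4n (Dectin-2) by 5.34, while Rac2, Pira2 and Btk fell by 1.51, 1.86 and 0.94. In lung macrophages against SPMs 24 were called higher and 13 lower, close to the background of 39.1% and 23.2% (median 0.42, against 0.41). Cblb, Lilra5 and Dok3 rose by 3.0, 5.88 and 2.45, and Tyrobp, Clec4b1 and Dok2 fell by 2.79, 4.80 and 3.87.

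By list, 7 of 10 tested genes among the other Fc receptors were called higher in WT SPMs than in monocytes and 0 lower. Fcer1a, the alpha chain of the IgE receptor, was at 0.350 to 1.23 CPM in WT monocytes and at 11.9 to 119.99 CPM in WT SPMs, beside the mast cell or basophil genes given above. Fcrla, a gene of B cells, was at 0.294 to 1.06 CPM in WT monocytes and 6.17 to 31.4 CPM in WT SPMs. The 7 B cell genes summed to 37.8 to 41.2 CPM in WT monocytes and 275 to 977 CPM in WT SPMs. In WT lung macrophages they summed to 207 to 1482 CPM. The part of B cells in the counts of this list was not tested. Of 22 tested ITAM kinases and adaptors 7 were called higher and 4 lower, and of 11 genes of the inhibitory arm 4 and 2. Over all genes the shares were 21.8% higher and 20.1% lower. Partners of the gamma chain had 5 of 8 higher and 0 lower, and those of FcRn 3 of 5 and 0. In lung macrophages against monocytes the other Fc receptors had 7 higher and 1 lower, the ITAM list 12 and 3, the inhibitory list 6 and 0, the gamma chain partners 5 and 1 and the FcRn partners 3 and 1, at a background of 39.5% higher and 24.4% lower.

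The neighbours of the cluster on chromosome 1 were read as well, from 170758617 to 171434365, which is the cluster with 200 kb on each side. Of the 48 genes that overlap this window, 24, 23 and 27 other than the members were tested in monocytes, SPMs and lung macrophages, and 0 were called between genotypes by edgeR, with 5, 0 and 1 at an unadjusted p under 0.05, where 17%, 5.46% and 2.97% of all genes had such a p. Their median log2 fold changes were 0.03, 0.15 and 0.02. Fcrla, an Fc receptor-like gene of B cells, had values of 1.30, 0.23 and -0.75, and the values of Fcgr4 itself were -1.14, 1.30 and 0.66.

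The genes whose log2 CPM followed each member most closely over the 26 libraries were listed by Pearson correlation, as a description of points that share cell type and table. For Fcgr1 these were Ms4a6b (0.86), Dhx58 (0.82) and Ms4a4c (0.81), and for Fcgr4 Gngt2 (0.98), Cd300ld (0.97) and Slfn2 (0.97). Fcrls was most like C1qb (0.99), Fxyd2 (0.99) and C1qc (0.98). Fcgr2b and Fcgr3 had Cmtm3 (0.98 each) in common, with H2-DMb1 and Hmox2 for the former and Ctsh and Snapc5 for the latter. Fcer1g was most like Ppdpf, Ifitm2 and Ftl1 (0.97 to 0.98), and Fcgrt most like Cd86, Slfn2 and Avpi1 (0.96 to 0.97).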

How the data were processed

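RNA of sorted monocytes, SPMs and MHCII negative lung macrophages was amplified from poly-A RNA and sequenced in pairs of 150 bases. The authors deposited raw read counts per gene in 3 tables, and the submitters' processing notes name HISAT2 2.0.5, featureCounts 1.5.0-p3, DESeq2 and mm10. The lung table ends in tallies that belong to no gene and hold 56.3% of its counts, which were left out, and its counter is uncertain. In replicates of a group, the smallest chi-square per degree of freedom was 10.6, so all 26 libraries were counted as separate samples. Where labels do not name separate mice, p-values measure only the spread between libraries.

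Groups were taken from the labels. Genes were kept by filterByExpr (minimum count 10, minimum total 15), scaled by TMM and tested with edgeR 4.0.16 in R 4.3.3 (quasi-likelihood test, two-sided, Benjamini-Hochberg adjustment over all genes kept). Genotypes were compared within each cell type, and cell types and interactions in a fit of all 26 libraries. Intervals of 95% use a normal approximation. The steps were also run on simulated counts, whose outcome is not reported here. The simulation held no cells of other types and no outlying libraries. Alternatives were other filters, RLE factors, a robust fit, DESeq2 1.42.0, a replicate block, and leaving out libraries. Correlations used log2(CPM + 0.5). The text names the 7 members, B2m, Tyrobp and, of the pathway lists, the called genes with the lowest p-values, at most 3 higher and 3 lower in a contrast. A gene that this rule picked is not reported here. Fcer1a and Fcrla were named after their values were seen. Members and lists were chosen with earlier results of these data known.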

Additional observations from a re-analysis of the deposited data

Results flagged for a closer look

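In groups of 4 or 5 libraries, 7 of 42 sets of CPM held a library whose distance from the nearest other, relative to the range of the group, passed Dixon's 95% critical value, where chance gives about 1 in 20. WT lung macrophage replicate 3 passed it in 3 of the 5 members in which it was the highest of its group, with 93.0 CPM of Fcgr1 (16.9 to 32.4 in the others), 374 CPM of Fcgr2b (124 to 168) and 285 CPM of Fcrls (28.7 to 72.0). ACKR2-/- lung macrophage replicate 4 held 1063 CPM of Fcgr4 (458 to 615 in the others), and it had the highest sum of nonclassical monocyte genes (9044 CPM). WT SPM replicate 1 held 129 CPM of Fcgrt (259 to 276). ACKR2-/- monocyte replicate 1 held 4.52 CPM of Fcgr4 (8.15 to 8.57), and without it the genotype effect on Fcgr4 was -0.97 and kept its call. WT monocyte replicate 2 held 46.2 CPM of Fcgr1 (63.1 to 65.3).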

How the results depend on the processing

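Of the 7 members, the number called without each library in turn was 0 to 1 for genotype in monocytes, 3 to 5 for lung macrophages against monocytes in WT, and 6 to 7 for SPMs against monocytes in WT. DESeq2 called 1 member, Fcgr4, in the interaction of SPMs and monocytes, where edgeR called 0. The replicate block left all counts of called members as they were and changed no member's call. Same-numbered libraries of the genotypes did not deviate together in a steady way (r from -0.099 to 0.31 in monocytes, -0.095 to 0.018 in SPMs and -0.078 to 0.66 in lung macrophages), so the numbers were not taken to pair them. Under the block Fcgr2b turned to -0.00676 in lung macrophages against monocytes and the Fcgr1 interaction of these cells to 0.16.

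All other changes of sign were in values that had not been called, except Fcgr1 in SPMs against monocytes (0.72 in ACKR2-/- in place of WT libraries) and in lung macrophages against SPMs in ACKR2-/- cells (0.50 without ACKR2-/- SPM replicates 1 and 4). In leaving out pairs of libraries, a choice made after seeing the data for monocytes and SPMs, the genotype effect turned in monocytes without ACKR2-/- replicates 1 and 2 (Fcgr1 0.20, Fcgr2b 0.057, Fcgr3 0.20, Fcer1g 0.12), in SPMs without ACKR2-/- replicates 1 and 4 (Fcgr1 -0.20, Fcgr4 -0.012, Fcgrt -0.16, Fcrls 0.13) and in lung macrophages without WT replicate 3 and the library labelled WT replicate 5 (Fcgr1 0.50, Fcgr2b 0.0065, Fcgr3 0.27, Fcgrt 0.16). In the fit of all libraries without these 2 SPM libraries, Fcgr1 turned to -1.36 in SPMs against monocytes in ACKR2-/- cells and the Fcgr4 interaction of lung macrophages and SPMs to 0.63. Without these 2 lung libraries 5 members were called against monocytes, Fcgr2b turned to -0.49 there, and Fcgr1 and Fcgrt to -0.13 and -0.11 against SPMs. With ACKR2-/- in place of WT libraries, Fcgr2b gave -0.30 in lung macrophages against monocytes, and Fcgr1, Fcgr4 and Fcgrt gave -1.59, -0.18 and -0.11 against SPMs. In a fit of the 2 WT groups alone, Fcgrt gave -0.00996 in lung macrophages against SPMs.

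Leaving out single libraries gave ranges across 0 for Fcgr3 (-0.20 to 0.056), Fcer1g (-0.36 to 0.041) and Fcgrt (-0.044 to 0.29) between genotypes in monocytes, for Fcgr2b (-0.10 to 0.30), Fcgr3 (-0.22 to 0.22) and Fcgrt (-0.11 to 0.16) in SPMs, and for Fcgr1 (-0.74 to 0.23), Fcgr3 (-0.51 to 0.079) and Fcgrt (-0.23 to 0.035) in lung macrophages. The same held for Fcgr2b in lung macrophages against monocytes (-0.39 to 0.14), Fcgrt against SPMs (-0.072 to 0.24) and the Fcgr1 interaction of lung macrophages and monocytes (-0.37 to 0.60). The cause was not tested. Depth limits Fcrls in monocytes, at 5 to 18 counts per library.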
